A study of Citrus reticulata with 36 samples.

Results

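Integument of the ponkan cultivar "Egan No.1" (EG) was compared between 32 and 18 days after pollination (DAP), with 3 libraries at each stage. Ponkan (Citrus reticulata) is a loose-skinned mandarin, and the integument is the outer tissue of the ovule, cut out here by laser capture microdissection. The 6 libraries were chosen by their cultivar, tissue and stage, out of 36 libraries of the series, and all gene identifiers of the count table were considered. The other libraries came from EG integument at 28 DAP, from EG nucellus, and from both tissues of the cultivar "Huagan No.4" (HG) at the same 3 stages. The labels name no treatment. They also do not say which tree or fruit each region came from or how regions were chosen. Regions of a group may therefore share a plant, and p-values, which rest on the spread between these libraries, would then be too small. The table numbers the stages 1 to 3, and taking these as 18, 28 and 32 DAP assumes an order by time that the labels do not give.

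After fertilisation the integuments grow around the embryo sac and become the seed coat. Their cells divide and expand first and later differentiate, often with changes in the cell wall and the deposit of phenolic compounds, and maternal nutrients pass through them to the developing seed. The labels do not say which of these steps the interval covers. The files give identifiers such as c72603_g1 without a gene name, description or sequence. No role can be given to any identifier below, and lists of seed coat, cell wall, flavonoid or cell cycle genes could not be matched.

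Between 18 and 32 DAP, no gene identifier of EG integument passed the main test. Of 57344 identifiers tested, edgeR's quasi-likelihood test called 0 (0% called) at a Benjamini-Hochberg adjusted p under 0.05, and the lowest adjusted p was 0.183. At an unadjusted p under 0.05 there were 3299 identifiers (5.75%), of which 1127 were higher and 2172 lower at 32 DAP. DESeq2 called 38 higher and 227 lower at 32 DAP (0.501% of 52892 with an adjusted p). Limma's voom with sample quality weights called 210 higher and 936 lower (2.00%), and limma on log2(FPKM + 1) called 13 and 30 (0.0750%). With all libraries, each of these tools placed more identifiers on the lower side at 32 DAP. The size of that imbalance and the unadjusted count depended strongly on single libraries. With edgeR its direction held when each of the 6 libraries was left out. Without replicate 3 of 18 DAP the unadjusted edgeR count was 1992, with 895 higher and 1097 lower, and DESeq2 called 3 higher and 3 lower. Without replicate 2 of 32 DAP the unadjusted count was 2163 (905 higher and 1258 lower), and without replicate 3 it was 2130 (877 and 1253). Without each of the other libraries it was 3060 to 4639, with more lower than higher.

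The typical identifier had nearly the same level at both stages. The median log2 fold change, 32 against 18 DAP, was -0.02 over all tested identifiers, and the quartiles were -0.35 and 0.31. Among the 30260 identifiers with a mean of at least 5 CPM (counts adjusted to the same effective library size) at either stage, the median was 0.00 and 5% to 95% of values ran from -0.90 to 0.79. For 15029 of these (49.7%), the unadjusted 95% interval of the log2 fold change stayed within 2-fold in either direction. The median half-width of that interval was 0.72 on the log2 scale. For identifiers with a mean under 1 CPM it was 2.15, so that for most of these a 4-fold difference was not detectable at this depth and spread.

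**Figure D1:**
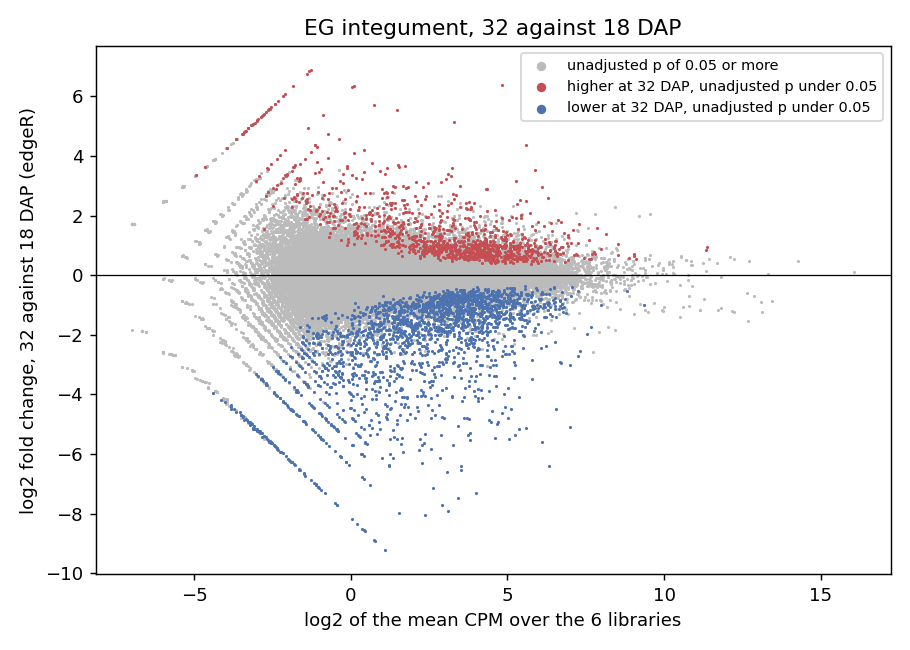
Log2 fold change of EG integument, 32 against 18 DAP (vertical axis), against the log2 mean CPM over the 6 libraries (horizontal axis), for the 57344 tested identifiers. The 1127 red and 2172 blue points have an unadjusted p under 0.05, none passed the adjusted threshold, and, with all 6 libraries, more of the large differences lie on the lower side.

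With all 6 libraries, the lower side also held more of the large differences. At an unadjusted p under 0.05, 912 of the 2172 lower identifiers had a fitted difference of at least 4-fold, against 253 of the 1127 higher ones. The median log2 fold changes of these lists, which were chosen by this same contrast, were -1.73 and 1.09. The imbalance was seen in most level classes, with 400 lower and 167 higher under 1 CPM, 628 and 236 from 1 to 5 CPM, and 755 and 396 from 5 to 20 CPM. It was smaller from 20 to 100 CPM, with 365 lower and 291 higher. Among the 738 identifiers with a mean of 100 CPM or more, 24 were lower and 37 higher. These splits by size and level were not computed without replicate 3 of 18 DAP, where the totals were 1097 lower and 895 higher.

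Counting only identifiers whose 3 libraries of a stage all lay beyond the 3 of the other gave another balance. By that measure 4151 were higher at 32 DAP (7.24%) and 3716 lower (6.48%). With 3 libraries a side, random order alone separates a share of identifiers each way, so these counts are not counts of real differences. Of the 54045 identifiers with an unadjusted p of 0.05 or more, 5598 also had no overlap. Switches between absence and clear presence were rare. A single identifier had no count at 18 DAP and at least 10 counts in every library at 32 DAP, and 5 showed the reverse. The most abundant identifier of every EG integument library, c94721_g1, had 43054, 78011 and 77613 CPM (library-size CPM) at 18 DAP in replicates 1 to 3. At 32 DAP it had 81846, 74192 and 70284 CPM. The stages overlapped, and its log2 fold change was 0.10 (95% interval -0.60 to 0.80).

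No identifier met the naming rule, which required a call. The 4 identifiers described next were therefore chosen after their values were seen, as those with the lowest unadjusted p in each direction among identifiers with no overlap between the stages and at least 5 CPM at 1 of them. They show the differences with the lowest unadjusted p under that rule, not all of the well-separated ones, and none of them passed the test. Another without overlap, c42525_g1, is given with the processing settings below.

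Of the identifiers higher at 32 DAP, c117645_g1 had the lowest p. Its levels at 18 DAP were 0.129, 0.566 and 1.30 CPM in replicates 1 to 3, and at 32 DAP they were 90.1, 32.9 and 45.3 CPM. The stages were far apart, and the 28 DAP libraries, at 17.3, 25.1 and 99.9 CPM, all lay above those of 18 DAP and overlapped those of 32 DAP. The fitted log2 fold change was 6.37 (SE 1.27, 95% interval 3.76 to 8.99, edgeR adjusted p = 0.183), while the adjusted p was 6.22e-06 with DESeq2 and 0.164 with voom. In HG integument the same identifier ranged from 0.352 to 10.4 CPM at 18 DAP and from 20.6 to 142 CPM at 32 DAP, again without overlap (log2 fold change 3.70, edgeR adjusted p = 0.184). In EG nucellus it ranged from 9.78 to 16.7 CPM and from 25.9 to 78.9 CPM.

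The second, c14585_g1, differed less but varied less between libraries. It had 14.7, 12.5 and 15.03 CPM at 18 DAP, 13.8, 25.7 and 21.8 CPM at 28 DAP, and 22.9, 31.7 and 30.9 CPM at 32 DAP. Replicate 1 of 28 DAP lay among the 18 DAP libraries, and the others lay near or above the lowest of 32 DAP. The log2 fold change was 1.02 (SE 0.21, edgeR adjusted p = 0.183), with an adjusted p of 0.00225 with DESeq2 and 0.00131 with voom. In HG integument its mean was 25.9 ± 6.16 CPM at 18 DAP and 19.7 ± 1.60 CPM at 32 DAP (SD, n = 3 each), and the difference between the cultivars' changes was 1.41 (SE 0.30, edgeR adjusted p = 0.193). EG nucellus had more of it than EG integument and was also higher at 32 DAP. There it ranged from 51.1 to 65.7 CPM at 18 DAP and from 75.7 to 80.1 CPM at 32 DAP (edgeR adjusted p = 0.809).

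The lowest p of the whole comparison belonged to c72603_g1, which was lower at 32 DAP. It had 8.86, 7.17 and 8.22 CPM at 18 DAP and 2.99, 2.18 and 1.61 CPM at 32 DAP. The 28 DAP libraries stood at 6.62, 2.93 and 4.72 CPM, of which replicate 2 fell within the 32 DAP range and the others lay between the stages. Its log2 fold change was -1.83 (SE 0.34, edgeR adjusted p = 0.183), against adjusted p-values of 0.000328 with DESeq2 and 0.00131 with voom. HG integument had 6.19 ± 1.71 CPM at 18 DAP and 7.13 ± 2.06 CPM at 32 DAP (SD, n = 3 each). EG nucellus had more, and its mean was also lower at 32 DAP, though the stages overlapped. It ranged from 14.1 to 28.5 CPM at 18 DAP and from 12.7 to 16.5 CPM at 32 DAP (edgeR adjusted p = 0.862).

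The other lower identifier, c128143_g1, was nearly absent at 32 DAP. Its counts at 18 DAP were 120, 107 and 406, or 7.76, 5.05 and 24.0 CPM, and at 32 DAP they were 2, 3 and 0. Replicate 1 of 28 DAP, at 7.63 CPM, lay within the 18 DAP range, while replicates 2 and 3 had 0.111 and 0.236 CPM. The log2 fold change was -7.13 (SE 1.39, edgeR adjusted p = 0.183), and the adjusted p was 4.73e-05 with DESeq2 and 0.000531 with voom. In HG integument it did not separate these stages, at 5.32 ± 3.50 and 5.34 ± 4.97 CPM, but it was at 0.353 ± 0.325 CPM at 28 DAP (SD, n = 3 each). EG nucellus was also lower at 32 DAP, without overlap but at few counts. It ranged from 0.226 to 1.41 CPM at 18 DAP and from 0 to 0.0497 CPM at 32 DAP (edgeR adjusted p = 0.695).

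**Figure D2:**
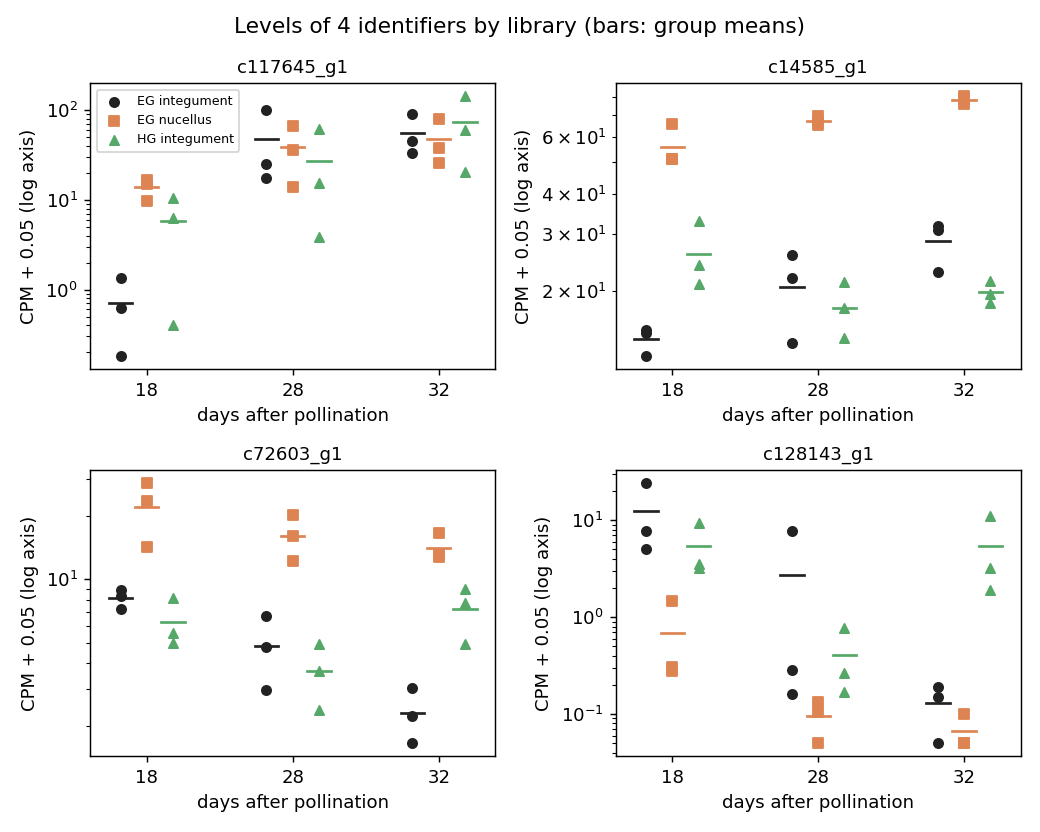
CPM plus 0.05 on a log axis for the 4 identifiers at 18, 28 and 32 DAP, with 1 point per library and a bar at each group mean. In EG integument (black) the 18 and 32 DAP libraries do not overlap for any of the 4, while at 28 DAP they spread between or across the stages, as for c128143_g1 with 7.63, 0.111 and 0.236 CPM.

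Libraries of a stage were hardly more alike than libraries of different stages. Over the tested identifiers, Spearman correlations were 0.899 to 0.939 within 18 DAP, 0.866 to 0.925 within 28 DAP and 0.932 to 0.983 within 32 DAP, and 0.869 to 0.954 between 18 and 32 DAP. The median was 0.925 over the 9 pairs within a stage and 0.920 over the 27 pairs between stages. Only 3 of the 9 EG integument libraries had their closest library of the whole series in their own group, against 14 of all 36 libraries. Replicate 3 of 18 DAP was closest to replicate 1 of 28 DAP (0.960), and replicate 3 of 28 DAP to replicate 1 of 32 DAP (0.972). Replicate 2 of 28 DAP was closest to replicate 2 of 32 DAP (0.977), and replicate 2 of 18 DAP to an HG integument library of 28 DAP (0.963). Replicates 2 and 3 of 32 DAP were the closest pair (0.983). Their counts differed by 8.41 chi-square units per degree of freedom, more than sampling noise, against 35.8 to 103 for the other pairs within a stage, and they were counted as separate libraries. Whether they come from the same plant was not tested. Whether the stage label of replicate 1 of 28 DAP, or of another library closest to a different stage, is wrong was also not tested. A wrong label there would change all 28 DAP values and both shorter steps, and one at 18 or 32 DAP the whole interval.

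**Figure D3:**
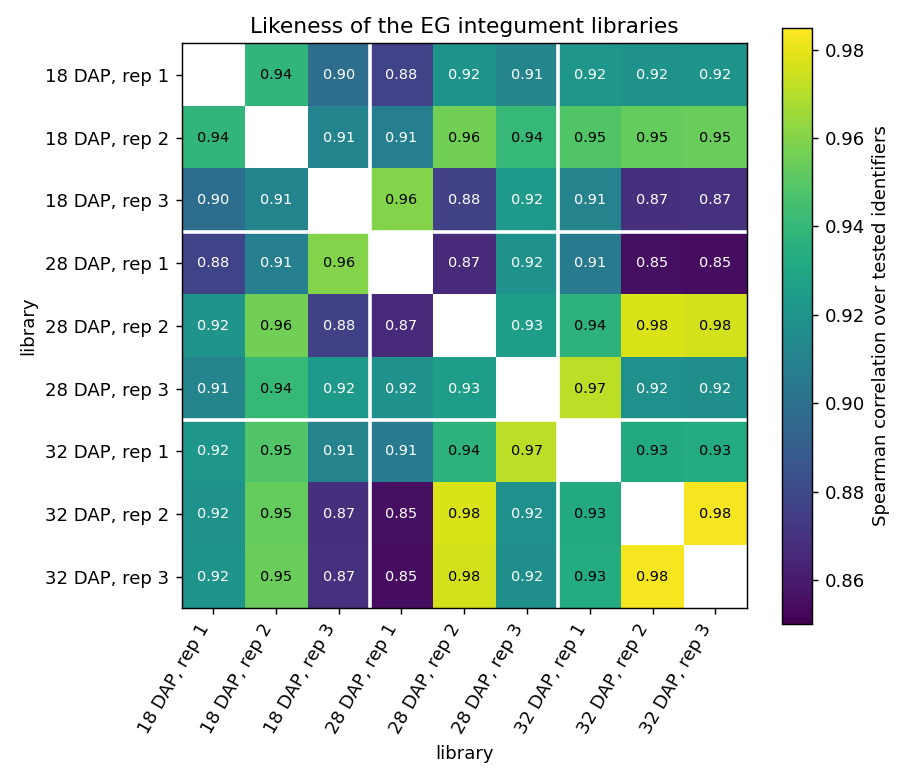
Spearman correlation over the tested identifiers between the 9 EG integument libraries, with white lines between the stages. High values cross the stage borders, as between replicate 3 of 18 DAP and replicate 1 of 28 DAP (0.960) and between replicate 2 of 28 DAP and replicate 2 of 32 DAP (0.977).

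The identifiers that separated 18 from 32 DAP also set the 28 DAP libraries apart from one another. For the 1127 higher at 32 DAP at an unadjusted p under 0.05, the level of each library was taken as the median difference of log2(CPM + 0.5) from the 18 DAP mean. The choice of the list fixes the distance between 18 DAP, at -0.06, 0.21 and -0.13, and 32 DAP, at 0.82, 0.99 and 1.01. The 28 DAP libraries did not enter the contrast, though they entered the shared estimate of spread, and stood at 0.06, 0.86 and 0.68. Replicate 1 was thus within the 18 DAP range, and replicates 2 and 3 were within or near that of 32 DAP. For the 2172 lower identifiers, 18 DAP stood at -0.17, -0.44 and 0.62 and 32 DAP at -0.84, -1.27 and -1.29. The 28 DAP libraries were at 0.47, -1.11 and -0.54. Replicate 1 was again within the 18 DAP range and replicate 2 within that of 32 DAP. Here replicate 1 was near replicate 3 of 18 DAP (0.62) and well above replicates 1 and 2 of that stage. Replicate 3 lay between the stages, nearer to -0.44 than to -0.84.

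**Figure D4:**
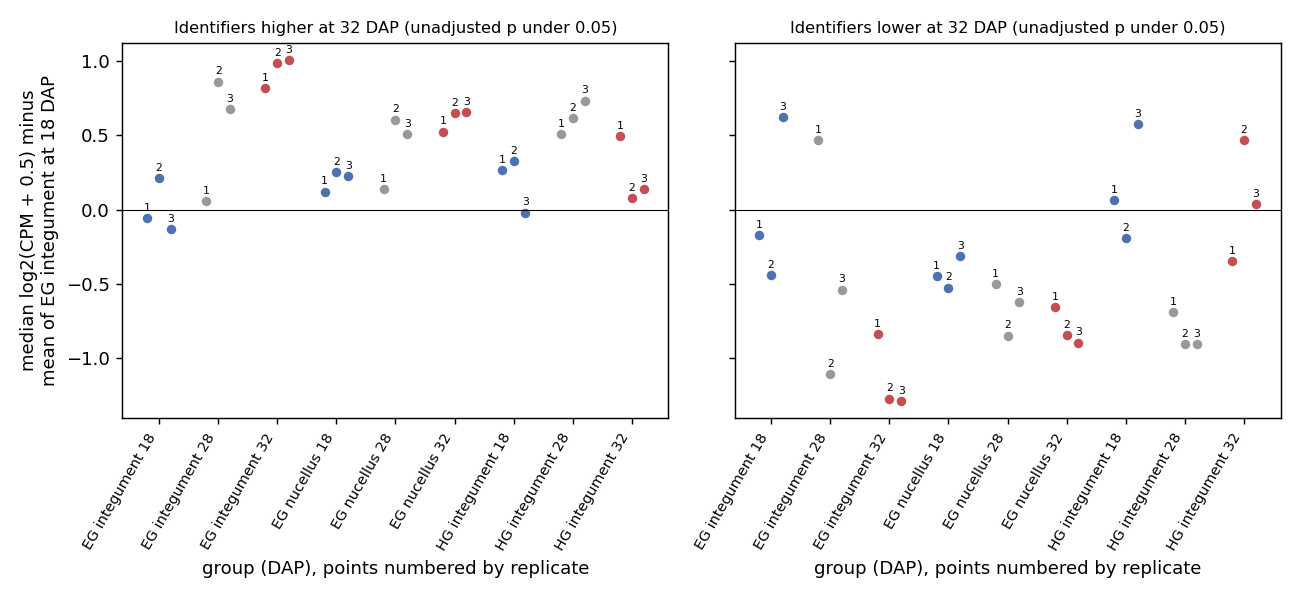
Median log2(CPM + 0.5) of the 1127 higher (left) and 2172 lower identifiers (right), minus the mean of EG integument at 18 DAP, with 1 point per library numbered by replicate. At 28 DAP, EG integument replicate 1 lies within the 18 DAP range (0.06 and 0.47) and replicate 2 within that of 32 DAP (0.86 and -1.11). On the right, replicate 1 is near replicate 3 of 18 DAP (0.62) and well above replicates 1 and 2 of that stage. Replicate 3 lies near 32 DAP on the left (0.68) and between the stages on the right (-0.54). HG integument at 32 DAP is back near its 18 DAP range on the right, at -0.35 to 0.47.

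The 265 identifiers that DESeq2 called all lay within the lists of 1127 and 2172, so their levels are no separate evidence. The same libraries stood out among them, and the choice by this contrast fixes the distance between 18 and 32 DAP. The median level of the 227 lower identifiers was 6.21, 3.87 and 19.4 CPM in replicates 1 to 3 of 18 DAP, and 1.35, 0.427 and 0.427 CPM at 32 DAP. At 28 DAP it was 16.5 CPM in replicate 1, 0.720 CPM in replicate 2 and 2.24 CPM in replicate 3. The 38 higher identifiers had medians of 2.59 to 3.87 CPM at 18 DAP and 12.5 to 14.9 CPM at 32 DAP. Of the DESeq2 calls, voom shared 193 of the lower ones (85.02% of DESeq2's and 20.6% of voom's) and 27 of the higher ones (71.1% and 12.9%). The DESeq2 count fell to 6 without replicate 3 of 18 DAP and to 43 without replicate 2 or replicate 3 of 32 DAP, and it was 822 without replicate 1 of 32 DAP.

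**Figure D5:**
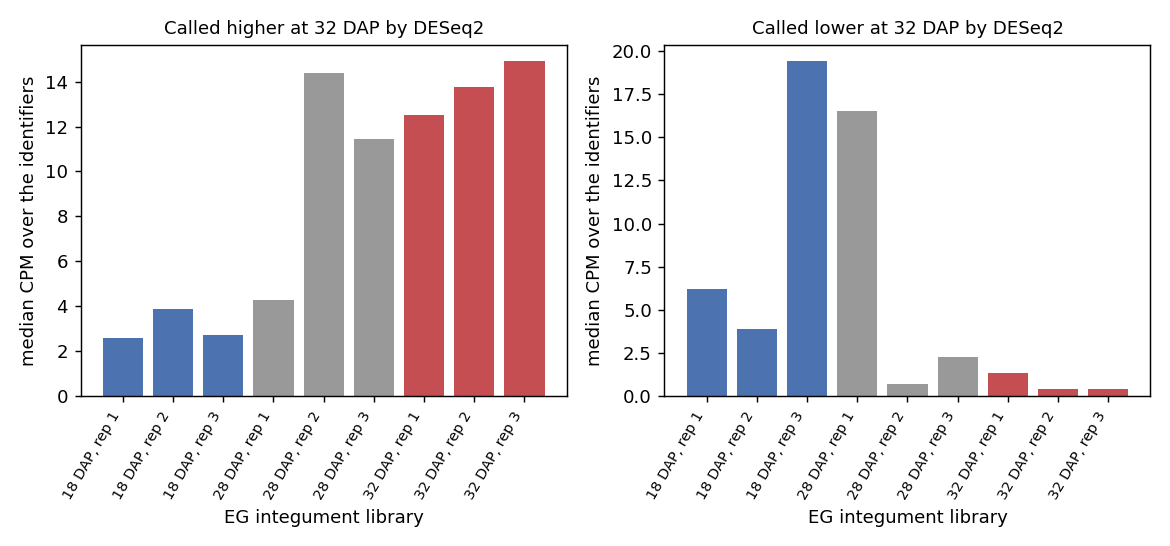
Median CPM, over the 38 identifiers called higher (left) and the 227 called lower (right) at 32 DAP by DESeq2, in each EG integument library (18 DAP blue, 28 DAP grey, 32 DAP red). On the right, replicate 3 of 18 DAP (19.4 CPM) and replicate 1 of 28 DAP (16.5 CPM) stand far above the other libraries.

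Replicate 3 of 18 DAP and replicate 1 of 28 DAP, the highest for the lower identifiers, also had the largest shares of counts in few identifiers. The other libraries did not follow that order. Replicate 1 of 18 DAP had the smallest of these shares, yet its lower identifiers stood above those of every 32 DAP library. Total counts were 12687779 to 20436963 at 18 DAP and 19498125 to 20022299 at 32 DAP, with 66234 to 67490 and 67459 to 68438 identifiers detected. The 10 most abundant identifiers took 23.6% of the counts in replicate 3 of 18 DAP and 23.4% in replicate 1 of 28 DAP, against 9.98% to 22.5% in the other EG integument libraries. A set of 24 identifiers that varied together over all libraries, chosen after the values were seen, took 17.6% and 18.9% of the counts in these libraries and 1.697% to 7.74% in the other EG integument libraries. Their median log2 fold change, 32 against 18 DAP, was -1.04, against -0.02 over all tested identifiers, though none of the 24 was among the 1127 or the 2172. The part of these properties in the differences between stages was not tested.

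Transcripts marking the neighbouring tissue were scarce at both stages. A list of 196 identifiers, called in HG with a level in nucellus at least 32 times that in integument and so made without EG libraries, summed to 58.2 to 243 CPM in EG integument at 18 DAP and 140 to 313 CPM at 32 DAP. In EG nucellus they summed to at least 11577 CPM in every library. Their median level was at or under 0.0592 CPM in every EG integument library, and 72 to 113 of the 196 had no count in a library. In EG nucellus libraries their median was itself only 1.20 to 2.49 CPM. The medians and zero counts in integument therefore say little about carry-over, and the sums rest on the more abundant members. Between 18 and 32 DAP, 9 of the 196 were higher and 8 lower at an unadjusted p under 0.05, where 1.97% of all tested identifiers were higher and 3.79% lower. They had a median log2 fold change of 0.03 against -0.02 over all tested identifiers. The 443 identifiers that marked HG integument by the same rule summed to 2916 to 3919 CPM at 18 DAP and 3993 to 4840 CPM at 32 DAP. At an unadjusted p under 0.05, 13 of them were higher and 50 lower, read against the same 1.97% and 3.79% of all tested, with a median of 0.16. The 2 stages did not overlap in this sum, while the count of lower members exceeded that of higher ones. A smaller share of cells of a type and less RNA per cell cannot be told apart in such libraries.

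The shorter steps gave no call with edgeR either. From 18 to 28 DAP it called 0 (0%). At an unadjusted p under 0.05 there were 1702 (2.97%), of which 753 were higher and 949 lower at 28 DAP. That count was 723 without replicate 1 of 18 DAP, with 375 higher and 348 lower, and 2697 and 2675 without replicates 2 and 3 of that stage. Without replicate 1 of 28 DAP it was 2701. DESeq2 called 2 (0.00349%), and voom and limma on FPKM 0 (0%). From 28 to 32 DAP the edgeR count was 0 (0%), and 2350 had an unadjusted p under 0.05 (4.10%), of which 456 were higher and 1894 lower at 32 DAP. DESeq2 called 63 (0.124%), all lower, limma on FPKM called 0, and voom called 353 higher and 1682 lower (3.55%). That step rested on single libraries of both stages. Its unadjusted count was 484 without replicate 1 of 28 DAP and 5663 without replicate 2, where edgeR called 5 lower identifiers. It was 4487, 1178 and 1112 without replicates 1, 2 and 3 of 32 DAP. Each step shares libraries with the whole interval, so these counts do not add to it.

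Whether the interval differed between tissues or cultivars was tested as a difference of changes. Against EG nucellus, the edgeR count was 0 (0%), and 1246 had an unadjusted p under 0.05 (2.17%), or 2013 without replicate 1 of EG integument at 32 DAP. DESeq2 called 8 (0.0140%), voom 28 (0.0488%) and limma on FPKM 5 (0.00872%). Same-numbered nucellus and integument libraries of EG deviated together at 18 and 32 DAP, with correlations of 0.31 to 0.51, and with these pairs as a block edgeR called 2, and the unadjusted count was 2553. Of the 2 calls, c22943_g1 had 32.6, 42.8 and 12.1 CPM in integument at 18 DAP and 18.7, 56.0 and 51.9 CPM at 32 DAP. In nucellus it had 2.20, 2.28 and 1.35 CPM at 18 DAP and 0.0889, 0.247 and 0.248 CPM at 32 DAP. The integument stages overlapped and the nucellus stages did not (difference of changes 3.91 on the log2 scale, edgeR adjusted p = 0.0466 with the block). The other, c89048_g1, had 2.46, 2.88 and 0.651 CPM in integument at 18 DAP and 6.03, 3.18 and 5.17 CPM at 32 DAP. Its nucellus levels went the other way, from 6.67, 14.9 and 4.04 CPM to 1.82, 2.37 and 1.64 CPM (difference 3.38, edgeR adjusted p = 0.0466 with the block). Without the block both had an adjusted p of 1.00.

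Against HG integument, the edgeR count for the difference of changes was 0 (0%). At an unadjusted p under 0.05 there were 4513 (7.87%), of which 1700 were more positive and 2813 more negative in EG. DESeq2 called 53 and 131 in these directions (0.334%), voom 64 and 210 (0.478%), and limma on FPKM 0 and 5 (0.00872%). The interval itself gave 54 edgeR calls in HG integument (0.0942%) and 2 in EG nucellus (0.00349%). These counts do not show that the groups differ, which the tests above address.

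The same interval in the other groups, which share no library with it, gave different values for the 2 lists. Of the 1127 identifiers higher in EG integument at 32 DAP, 83.1% were also higher in EG nucellus at 32 DAP, against 47.8% of all tested. Their median log2 fold change there was 0.48. Of the 2172 lower ones, 77.2% were lower in EG nucellus, against 52.0% of all, with a median of -0.46. The paired deviations above mean that EG nucellus is not an independent sample of these changes. Same-numbered EG and HG integument libraries had correlations of 0.06, 0.31 and 0.50 at 18 DAP and -0.26, -0.24 and 0.14 at 32 DAP. Whether HG integument is fully independent was not tested. In HG integument the figures were 58.7% higher, against 52.0% of all, with a median of 0.12, and 51.0% lower, against 47.8% of all, with a median of -0.02. For the 227 identifiers that DESeq2 called lower in EG, median levels in HG integument were 6.91 to 16.8 CPM at 18 DAP, 1.13 to 2.62 CPM at 28 DAP and 6.003 to 17.5 CPM at 32 DAP. In that cultivar the low stage was 28 DAP, and the 18 and 32 DAP libraries overlapped.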

How the data were processed

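Read counts per gene identifier were used as deposited; they are whole numbers, and the authors' FPKM values (rounded to 2 decimals in the deposited table) served for an alternative test. The submitters' processing notes list RSEM, Bowtie2, cutadapt and DESeq. Their settings, the genome build or assembly, and any rounding of RSEM's estimates are not stated there. Per the labels' protocols, nanogram amounts of RNA were amplified as cDNA from random primers, and 2 instrument models were used without saying for which library. The amplified reads carry no molecular identifiers, so a read is not a molecule. Of 128861 identifiers, 34664 had no count in any library. The table pairs none of them with a gene name. An identifier may hold part of a gene, or share reads with a close copy.

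edgeR 4.0.16 (R 4.3.3; limma 3.58.1, DESeq2 1.42.0) was fitted to all 36 libraries with 1 mean for each of 12 groups (24 residual degrees of freedom), TMM normalisation and filterByExpr (minimum count 10, minimum total 15), leaving 57344 identifiers with 99.9% of the counts. Total counts were 12687779 to 20947644 per library. Each standard error is the fold change over the root of its F statistic. Adjusted p-values cover all identifiers tested. The naming rule took, among called identifiers without overlap whose higher group averaged 5 CPM or more, the largest change and the most abundant in each direction. For differences of changes it took the 2 largest per direction. No more than 2 identifiers per direction were to be named where names are lacking. The call of the fit on 6 libraries, c42525_g1, is given beyond that limit. Those named here were chosen after their values were seen. The comparison, lists and tests were chosen with earlier results of these data known. Same replicate numbers were taken to pair libraries only where every pair's deviations correlated above 0.1. This held for EG nucellus and integument at 18 and 32 DAP (r from 0.31 to 0.51). It did not hold between stages of EG integument (r from -0.36 to 0.52) or between EG and HG integument (r from -0.26 to 0.50). The code's fold change estimates were checked on simulated counts of independent libraries. That simulation did not include the likeness between libraries of different stages seen here.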

Additional observations from a re-analysis of the deposited data

How the results depend on the processing

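The edgeR count for 32 against 18 DAP was 0 with DESeq2 size factors, without a filter, with a mean of at least 5 CPM, on the 9 EG integument libraries alone, without replicate 1 of EG nucellus at 28 DAP, with the replicate block, and when each of the 6 libraries was left out in turn. On the 6 libraries alone it was 1, c42525_g1 (log2 fold change 4.36, edgeR adjusted p = 0.00870). It had 4.85, 3.63 and 5.03 CPM at 18 DAP and 76.9, 107 and 95.3 CPM at 32 DAP in replicates 1 to 3. In the main fit its log2 fold change was 4.37 (SE 1.38, edgeR adjusted p = 0.451). The other tools gave 265 (DESeq2), 1146 (voom) and 43 (limma on FPKM). With replicates 1, 2 and 3 of 18 DAP left out in turn, DESeq2 gave 181, 377 and 6, and with those of 32 DAP 822, 43 and 43. These DESeq2 fits, the 9-library fit, the fit without the nucellus library and the nucellus-integument pairing were chosen after seeing the data. From 18 to 28 DAP DESeq2 gave 2, and from 28 to 32 DAP DESeq2 gave 63 and voom 2035, while leaving out libraries gave 0 to 5. Against EG nucellus the counts were 8 (DESeq2), 28 (voom), 5 (limma on FPKM) and 2 (pairing as a replicate block). They were 1 without replicate 1 of EG nucellus at 28 DAP and 0 with each of 12 libraries left out. That 1 was c116272_g1 (difference of changes 2.86, edgeR adjusted p = 0.000929 in that fit), which the main fit did not call. It had 8.99, 9.20 and 10.5 CPM in integument at 18 DAP and 13.8, 12.5 and 13.4 CPM at 32 DAP. In nucellus it went from 7.58, 11.1 and 8.29 CPM to 1.11, 2.03 and 1.99 CPM. Against HG integument the counts were 184, 274 and 5 by the 3 other tools, and 0 to 1 with libraries left out. The 1 was without HG replicate 1 of 18 DAP. Replicate numbers did not pair the stages of EG integument, and the planned replicate block by number gave 0 for all 5 comparisons. No setting reversed any of the 4 named identifiers, but a reversal was hardly possible. They were chosen for no overlap between the stages in these same libraries, so their unchanged direction is no separate evidence. The log2 fold change of c117645_g1 was 5.23 to 7.32 over the settings and that of c128143_g1 was -7.96 to -5.92. For c14585_g1 it was 0.90 to 1.17, and for c72603_g1 it was -2.08 to -1.19. The causes of the differences between tools were not tested.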
